A study of Mus musculus with 8 samples.

Results

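The genes that encode the proteins of the cytosolic ribosome were examined in liver of mice with and without a heterozygous change of Mtap. A gene was included when a probe set of the array carried its symbol alone and that symbol was Rpl or Rps followed by a digit, or Rplp0, Rplp1, Rplp2 or Rpsa. Genes of the Rps6k family, Rps19bp1 and pseudogenes were left out. Of 18193 genes measured, 49 met this rule, 26 of the large subunit and 23 of the small subunit. These genes had 105 such probe sets, and each gene is read from the one of highest average signal. A further 31 symbols of the family, among them Rpl5, Rpl10, Rpl31, Rplp1 and Rps12, occurred solely on probe sets that also carry other symbols, and these were not members.

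Whole liver was profiled in 4 MTAP+/- and 4 MTAP+/+ mice, all C57BL/6 males aged 92 to 101 days, with 1 Affymetrix array per mouse. The labels name neither the kind of altered allele nor litters or times of collection. All levels are log2 signals made by the authors with RMA, and all changes are MTAP+/- minus MTAP+/+ in log2 units. In pieces of whole tissue, fewer cells of a type and less RNA per cell cannot be told apart.

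Mtap was lower in all 4 MTAP+/- livers. This gene, which encodes the phosphorylase that recycles methylthioadenosine to methionine and adenine, averaged 6.90 ± 0.12 in MTAP+/- livers and 7.69 ± 0.10 in MTAP+/+ livers (SD, n = 4 each), a change of -0.80 ± 0.10 (SE, adjusted p = 0.0281 from limma). With 1 liver left out it passed 0.05 only without MTAP+/- replicate 2 or MTAP+/+ replicate 4, and the adjusted p otherwise reached up to 0.121. The adjusted p was 0.112 with the replicate number as a block and 0.0589 with dim genes left out. The gene's other probe sets, which were dimmer, all had larger falls, up to -1.63 ± 0.22, and the genotypes overlapped at none. In a fit over all 45037 probe sets every Mtap probe set had an adjusted p under 0.05. The mean of the Mtap probe sets gave -1.23 (adjusted p = 0.0063). Signals of 45037 probe sets correlated between arrays with r from 0.983 to 0.994. The hepatocyte markers had list means of 13.15 to 13.36 in MTAP+/- livers and 13.16 to 13.29 in MTAP+/+ livers, with albumin (Alb) between 14.38 and 14.52 in all 8 livers. Of 11 Kupffer cell markers, 9 were higher in MTAP+/- livers, with a median change of 0.31 and list means of 8.63 to 9.18 in MTAP+/- and 8.44 to 8.71 in MTAP+/+ livers. Among the MTAP+/- livers, replicate 2 stood apart in the markers Vsig4 and Marco, in opposite directions. Vsig4, a complement receptor of Kupffer cells, had 8.20 there and 9.74 to 9.98 in the other MTAP+/- livers, and Marco, a scavenger receptor of macrophages, had 9.97 there and 4.73 to 6.44 in the others. Both were named after their values were seen. Without that liver 0 ribosomal protein genes passed the threshold, and their smallest adjusted p was 0.107. The part of these resident macrophages in the values below was not tested.

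A ribosome joins ribosomal RNA and a large set of proteins into a small subunit, which reads the messenger RNA, and a large subunit, which forms the peptide bond. Cells make these proteins in near-equal numbers, and hepatocytes, which secrete most plasma proteins, hold many ribosomes. The messenger RNAs of ribosomal proteins begin with a cytosine followed by a run of pyrimidines, the 5′ terminal oligopyrimidine motif, through which the kinase complex mTORC1 controls their translation. An array measures the amount of these messenger RNAs and not their translation.

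Promoter sequence, which the rule did not use, was searched for letters that members share. In the RefSeq promoters of build GRCm38.p6, which run from 250 bases before a start to 50 after it, 43 of the 49 members had 51 entries. A C followed by at least 6 pyrimidines on the gene's strand reached, with at least 1 base, into the 30 bases on either side of the start in 33 of 51 entries (64.7%), against 30.8% of 32851 promoters of all genes. The letters CCGGAAG, read on both strands, occurred in 21 of 51 (41.2%), against 8.86% of all. The letters ATGGCGG, on both strands, occurred in 7 (13.7%), against 4.05%. TATAAA, on both strands, occurred in 6 (11.8%), against 13.6%. Matches were counted whether or not they overlapped another motif. A match is a description of the letters and not of a bound factor.

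The windows below, from 50 bases before the start to 30 bases from the start on, belong to 2 of the 3 members with the lowest p and to the 3 members that followed the family mean most closely. Capitals mark the one such run that lies nearest the start and reaches into the 30 bases on either side of it. Runs further off stay in lower case, as does a second one near the left end of the Rps18 window.
Rps6 (chr4:86857338-86857417, minus strand): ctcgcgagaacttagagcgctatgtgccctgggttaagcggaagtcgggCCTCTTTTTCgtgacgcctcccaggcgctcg
Rpl7l1 (chr17:46782627-46782706, minus strand): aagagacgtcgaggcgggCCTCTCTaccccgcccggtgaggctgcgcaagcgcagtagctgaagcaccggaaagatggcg
Rps18 (chr17:33955636-33955715, minus strand): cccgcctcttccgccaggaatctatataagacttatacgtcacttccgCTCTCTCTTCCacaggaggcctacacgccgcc
Rps3 (chr7:99483680-99483759, minus strand): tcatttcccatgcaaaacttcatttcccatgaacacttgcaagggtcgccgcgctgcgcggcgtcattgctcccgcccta
Rpl38 (chr11:114668530-114668609, plus strand): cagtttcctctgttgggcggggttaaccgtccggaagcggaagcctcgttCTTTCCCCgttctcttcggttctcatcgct
In Rps6, Rps18 and Rpl38 the run began between 2 bases before the start and the start itself, and it was 10, 11 and 8 bases long in that order. In Rpl7l1 a run of 7 bases began 32 bases before the start and so lay only in part within 30 bases of it. Rps3 had no run that reached into those bases.

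The ribosomal protein genes did not separate the genotypes as a family. With limma and Benjamini-Hochberg adjustment over all 18193 genes, 0 of 49 members passed an adjusted p of 0.05, where 9 of all genes (0.0495%) did, 4 of them (0.022%) lower in MTAP+/- livers. The smallest adjusted p among members was 0.123, of Rps4l. At an unadjusted p under 0.05 there were 3 members (6.12%), all lower in MTAP+/- livers, against 9.14% of all genes, of which 4.74% were lower and 4.4% higher. The signals of the genotypes did not overlap for 2 members (4.08%), against 4.64% of all genes. In both members the MTAP+/- livers lay below, against 2.7% of all genes. The shares over either direction lay under the background. Among genes above the median of all gene means, 6.98% of 43 members had an unadjusted p under 0.05, against 13.7% of all genes. In that range 4.65% of members did not overlap, against 6.12% of all genes.

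The changes of the members were small. Their median was -0.022, beside -0.017 over all genes, with quartiles of -0.12 and 0.03 beside -0.12 and 0.09. For 43 of 49 members (87.8%) the change was under 0.2 in size, as it was for 76.0% of all genes. The 95% interval of the change lay wholly within 0.5 of 0 for 40 members (81.6%) and for 72.3% of all genes. Among genes above the median of all gene means, these shares were 90.7% and 86.0% for the members, in that order. They were 65.7% and 59.6% for all genes in that range. The members with larger changes were Rps4l, Rpl7l1, Rps6, Rpl27a, Rpl14 and Rps25. Their mean signals ran from 4.51 (Rps25) to 8.64 (Rps4l), where the brightest member, Rps29, had 13.15 and the highest value on any array was 14.72. The part of signal level or of probe set kind in the size of the changes was not tested. A p above the threshold does not show equal levels, and the intervals give the differences that 8 arrays leave possible. The plot of changes shows Rps4l, Rpl7l1 and Rps6 apart from the others at the lower end and Rps25, with a wide interval, at the upper end.

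**Figure D1:**
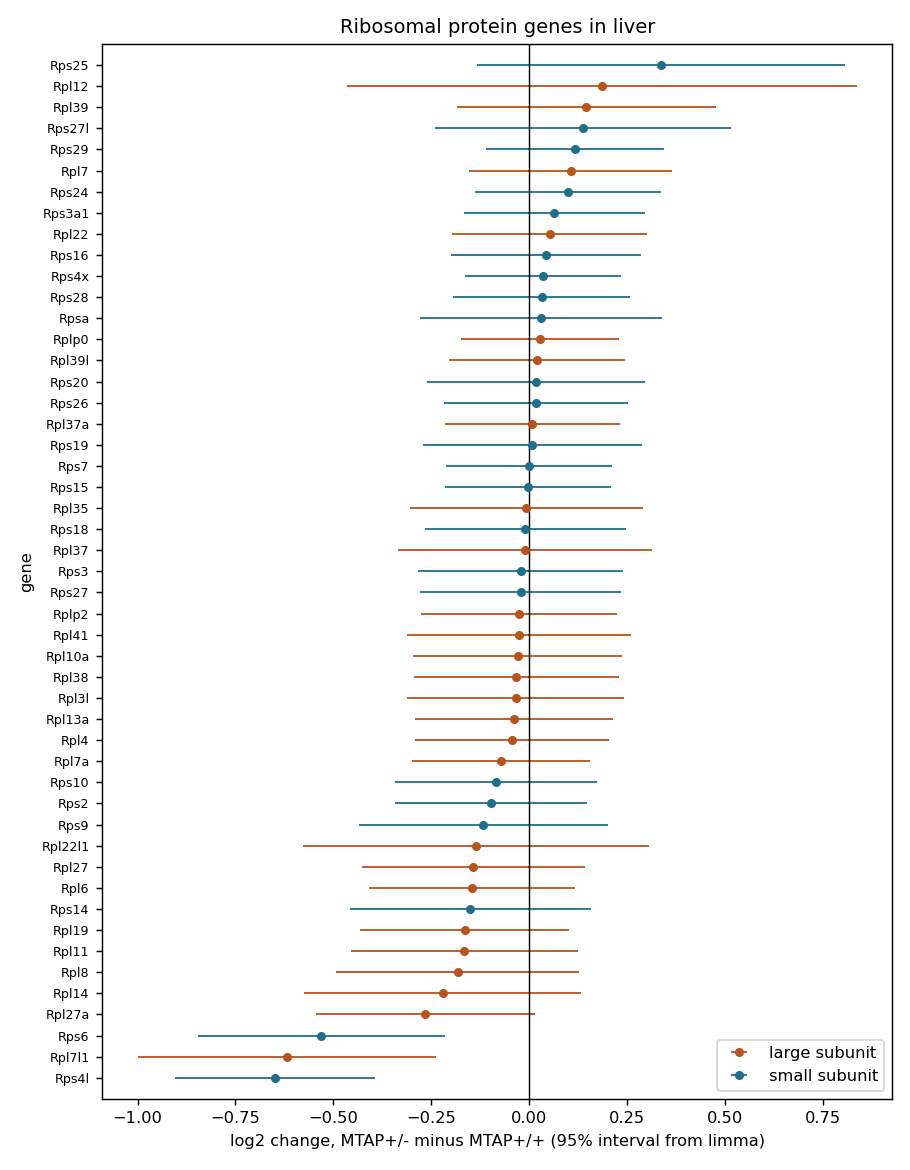
The log2 change of each of the 49 ribosomal protein genes, MTAP+/- minus MTAP+/+, is plotted on the x axis with its 95% interval from limma, and the genes run down the y axis in order of change. Colours separate the large from the small subunit, and the points span -0.65 (Rps4l) to 0.34 (Rps25).

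Of the members, 19 (38.8%) were higher and 30 lower in MTAP+/- livers, where 45.3% of all genes were higher. This split depended on single livers and on the processing. Without MTAP+/- replicate 2 it was 29 higher, and without MTAP+/+ replicate 1 it was 30 higher. It was 24 higher with the mean of probe sets and 28 with array weights. With probe sets named _a_at, _s_at or _x_at left out, 15 of 26 were higher. Large-subunit members numbered 7 higher and 19 lower with a median of -0.033, and small-subunit members 12 higher and 11 lower with a median of 0.0076. The difference between subunits was not tested.

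The mean signal of the 49 members was 10.44, 10.33, 10.38 and 10.49 in MTAP+/- livers and 10.59, 10.48, 10.41 and 10.37 in MTAP+/+ livers, for replicates 1 to 4 of each. It averaged 10.41 ± 0.07 in MTAP+/- and 10.46 ± 0.09 in MTAP+/+ livers (SD, n = 4 each), so the difference of -0.052 was smaller than either SD. The groups overlapped, and the highest and the lowest liver belonged to different genotypes. MTAP+/+ replicate 1 had 42 of 49 members above their own mean over the 8 livers, and MTAP+/- replicate 2 had 11. MTAP+/- replicate 2 was the lowest liver for 20 members, and MTAP+/+ replicate 1 the highest for 15.

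The spread within a genotype lay below that of all genes. The median SD of the members was 0.161, beside 0.180 over all genes. Above the median of all gene means it was 0.161 for 43 members and 0.204 for all genes. MTAP+/- replicate 2 also had the lowest difference between the 3′ and 5′ signals of the actin control, at 1.27, where the other 3 MTAP+/- livers had 1.87 to 1.93 and the MTAP+/+ livers 1.59 to 1.84. In the Gapdh control it had 0.16, the other 3 MTAP+/- livers 0.30 to 0.31 and the MTAP+/+ livers 0.15 to 0.28, so it was not the lowest of the 8. That liver also stood apart from the other MTAP+/- livers in Vsig4 (low) and Marco (high), as given above. The part of RNA quality or of cell makeup in its low values was not tested.

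**Figure D2:**
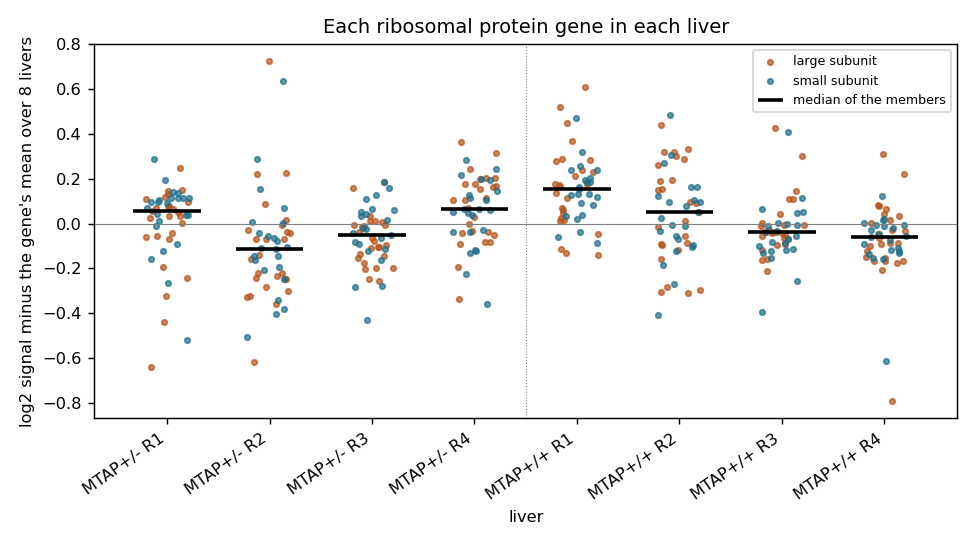
Each dot is 1 ribosomal protein gene in 1 liver, as its log2 signal minus its own mean over the 8 livers (y axis), with livers along the x axis, MTAP+/- left of MTAP+/+, and subunits in colour. The bars mark the median of the members, which ran from -0.11 in MTAP+/- replicate 2 to 0.15 in MTAP+/+ replicate 1.

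Rps4l, an autosomal relative on chromosome 6 of the X-linked small-subunit gene Rps4x, had the largest change of any member. Its signal was 8.38, 8.40, 8.21 and 8.29 in MTAP+/- livers and 8.88, 8.74, 9.05 and 9.20 in MTAP+/+ livers. All 4 MTAP+/- values lay below all MTAP+/+ values. The change was -0.65 ± 0.12 (SE, n = 4 each), with a level 63.8% (95% interval 53.4 to 76.1) of that in MTAP+/+ livers and an adjusted p of 0.123. Over the other fits the change lay between -0.73 and -0.57 and the adjusted p between 0.0589, with array weights, and 0.364. Rps4x itself averaged 12.41 in MTAP+/- and 12.37 in MTAP+/+ livers, a change of 0.035 ± 0.091, and turned to -0.002 without MTAP+/- replicate 4.

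Rps6 encodes the small-subunit protein that S6 kinases phosphorylate when mTORC1 is active. Its signal was 7.15, 7.52, 7.39 and 7.54 in MTAP+/- livers and 8.14, 8.15, 7.78 and 7.65 in MTAP+/+ livers. The genotypes did not overlap, though the highest MTAP+/- liver and the lowest MTAP+/+ liver were close. The change was -0.53 ± 0.14 (adjusted p = 0.306), a level 69.2% (95% interval 55.7 to 86.1) of that in MTAP+/+ livers. The mean of the Rps6 probe sets gave -0.30, and the gene's other probe set had -0.078 ± 0.13.

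Rps6 also lies near Mtap on chromosome 4, at rank 77 by distance among all annotated genes and rank 44 among protein-coding ones, and it was the sole member among the 100 nearest genes. The part of this position in the values was not tested. A further 9 probe sets were annotated jointly to Rps6 and its pseudogene Rps6-ps4. Their changes ran from -0.052 to 0.10, the brightest, with a mean of 13.13, had 0.044 ± 0.087, and at each of the 9 the genotypes overlapped.

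Rpl7l1 is a relative of the large-subunit gene Rpl7, and its counterpart in the yeast Saccharomyces cerevisiae works in ribosome assembly. Its signal was 7.48, 8.11, 7.86 and 7.78 in MTAP+/- livers and 8.64, 8.56, 8.54 and 7.96 in MTAP+/+ livers. The genotypes overlapped through MTAP+/+ replicate 4. The change was -0.62 ± 0.17 (adjusted p = 0.310), a level 65.1% (95% interval 50.1 to 84.8) of that in MTAP+/+ livers, and -0.77 without that liver (adjusted p = 0.123). The gene's other probe sets had -0.17 ± 0.12 and 0.089 ± 0.15, and their mean with the chosen one gave -0.23. Rpl7 had 12.01, 11.64, 12.07 and 12.04 in MTAP+/- livers and 11.75, 11.77, 11.89 and 11.93 in MTAP+/+ livers, a change of 0.11 ± 0.12.

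**Figure D3:**
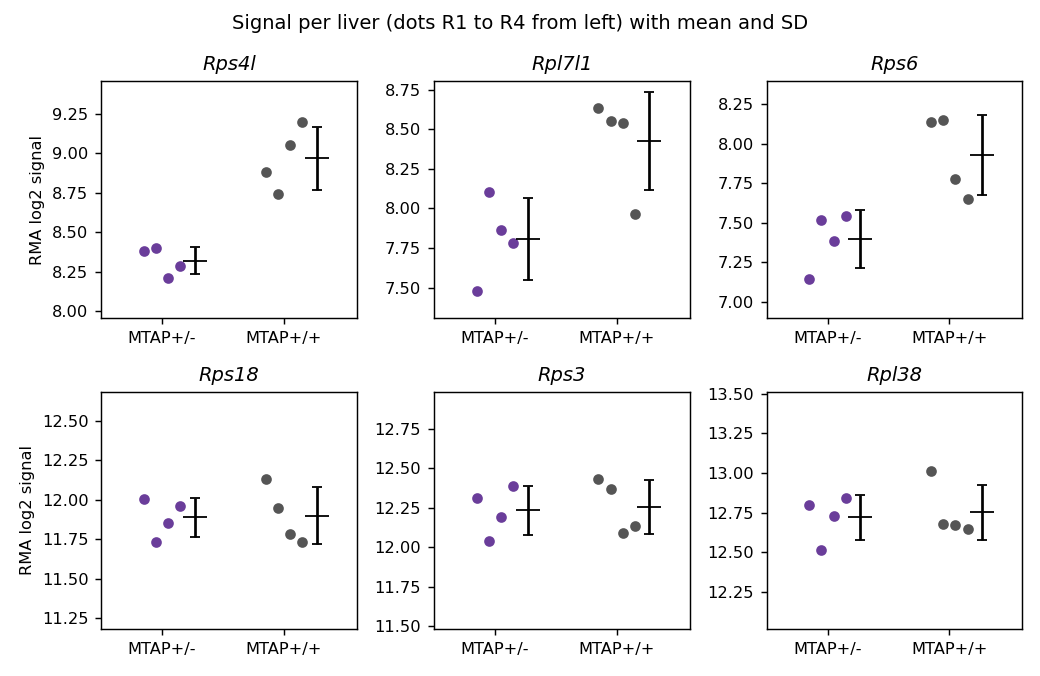
RMA log2 signal per liver (y axis) of the 3 members with the lowest p, Rps4l, Rpl7l1 and Rps6, and of the 3 that followed the family mean most closely, Rps18, Rps3 and Rpl38, with MTAP+/- left of MTAP+/+. Dots are replicates 1 to 4, bars are mean and SD, the y axes differ in position, and the genotypes overlap in all panels but those of Rps4l and Rps6.

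The remaining relatives of ribosomal protein genes had smaller changes. Rps27l, a p53 target related to Rps27, had a change of 0.14 ± 0.17 with 11.25 to 11.94 in MTAP+/- and 11.24 to 11.79 in MTAP+/+ livers. Rps27 itself had -0.022 ± 0.12, and a brighter probe set shared with another symbol had 0.135 ± 0.138. Rpl22l1, the relative of Rpl22, had -0.14 ± 0.20, with 9.95 in MTAP+/- replicate 2 as its lowest value, and turned to 0.046 without that liver. Rpl22 had 0.053 ± 0.11, and -0.007 without MTAP+/+ replicate 4. Rpl3l, known from heart and skeletal muscle, and Rpl39l, known from testis, had changes of -0.035 ± 0.13 and 0.020 ± 0.10 at mean signals of 3.39 and 2.55, under the median of all gene means (5.12). Of the 6 relatives measured of 9 listed, 0 passed the threshold and 2 (33.3%), Rps4l and Rpl7l1, had an unadjusted p under 0.05, against 9.14% of all genes.

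The proteins of the stalk, which recruits the GTP-binding translation factors, had small changes that did not pass the test. Rplp0, which anchors the stalk, had 12.22, 12.11, 12.13 and 12.17 in MTAP+/- livers and 12.26, 12.05, 12.11 and 12.10 in MTAP+/+ livers, a change of 0.028 ± 0.092. Rplp2, a subunit of the stalk's arms, had -0.026 ± 0.11. Rpl12, at the base of the stalk, had 0.19 ± 0.29 and the widest range of all members over the 8 livers, 1.52. Its chosen probe set was dim, with 3.31 to 4.36 in MTAP+/- and 2.84 to 4.24 in MTAP+/+ livers. The brighter of its 2 probe sets shared with other symbols had -0.19 ± 0.16.

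Around the exit of the tunnel through which new peptides leave, 4 of 8 listed genes were measured, with a median change of 0.023. Rpl19 had 12.19 to 12.35 in MTAP+/- and 12.17 to 12.63 in MTAP+/+ livers, a change of -0.16 ± 0.12. Rpl39 had 0.15 ± 0.15, with MTAP+/- replicate 2 (6.48) as its lowest liver. A brighter probe set that Rpl39 shares with another symbol had 0.022 ± 0.21. Rpl35 had -0.007 ± 0.14 and Rpl22 the value above. Rpl11, which with Rpl5 carries the small ribosomal RNA of the large subunit and binds Mdm2 when assembly fails, had 12.33, 12.00, 12.17 and 12.17 in MTAP+/- livers and 12.48, 12.58, 12.18 and 12.08 in MTAP+/+ livers. Its change was -0.17 ± 0.13, and its genotypes overlapped.

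Loss of 1 copy of certain ribosomal protein genes causes Diamond-Blackfan anaemia in humans. Of 20 such genes listed, 12 were measured as mouse genes, 6 of them higher and 6 lower in MTAP+/- livers. Their changes ran from -0.17 (Rpl11) to 0.12 (Rps29), with a median of 0.0034, and 0 passed the threshold or an unadjusted p under 0.05. Rps24 had 12.24, 11.95, 12.20 and 12.39 in MTAP+/- livers and 12.09, 12.09, 12.14 and 12.07 in MTAP+/+ livers, a change of 0.098 ± 0.11. The change of Rps24 was -0.014 with probe sets named _a_at, _s_at or _x_at left out, read from a dim probe set with a mean of 3.68. Its brighter probe sets, of the kinds left out, had changes from 0.023 to 0.10. Rps29 had 0.12 ± 0.10 and Rpl27 -0.14 ± 0.13.

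Among other members, Rps25, a small-subunit protein used in initiation at internal entry sites, had the highest change. Its signal was 4.52, 5.15, 4.67 and 4.38 in MTAP+/- livers and 4.77, 4.59, 4.12 and 3.90 in MTAP+/+ livers, a change of 0.34 ± 0.21 (adjusted p = 0.683). A brighter probe set shared with 2 other symbols had -0.027 ± 0.10. Rps3a1 had 0.064 ± 0.10 and Rps16, a dim member, 0.044 ± 0.11. The brightest probe set that Rps16 shares with other symbols had -0.044 ± 0.091. Negative changes were also those of the large-subunit genes Rpl27a (-0.27 ± 0.13), Rpl14 (-0.22 ± 0.16), Rpl8 (-0.18 ± 0.14), whose protein lies near the peptidyl transferase centre, and Rpl6 (-0.15 ± 0.12). Their adjusted p-values lay between 0.572 and 0.774. Rpl27a had -0.073 with the mean of its probe sets, and a brighter probe set shared with other symbols had 0.019 ± 0.093. The brightest of 5 probe sets that Rpl14 shares with its pseudogene Rpl14-ps1 had -0.059 ± 0.12. Fau, whose product is processed to a small-subunit protein outside the rule, had -0.13 ± 0.12.

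Probe sets of 1 gene often disagreed at this scale. Of the 105 probe sets of the members, 0 passed the threshold in a fit over all 45037 probe sets (0.0355% passed), and 4 had an unadjusted p under 0.05, where 8.41% of all probe sets did. These were the chosen ones of Rps4l, Rps6 and Rpl7l1 and a dim one of Rps10, with a change of 0.27, named after its value was seen. In 10 of 24 members with several probe sets all changes had 1 sign, and the median spread of changes within a gene was 0.106. Probe sets with names ending in _a_at, _s_at or _x_at represented 33 of 49 members (67.3%) and 20.3% of all genes. A further 110 probe sets carried a ribosomal protein symbol beside other symbols, and their changes ran from -0.20 to 0.26 with a median of -0.026. Of these 110, 0 passed the threshold or an unadjusted p under 0.05, against 0.0355% and 8.41% of all probe sets. Only 1 of the 110 separated the genotypes, against 4.35% of all probe sets.

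**Figure D4:**
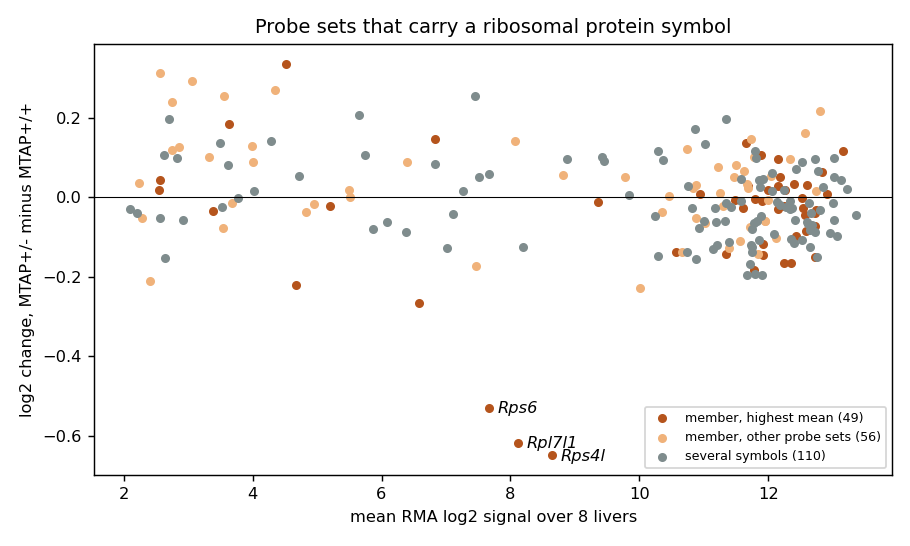
The log2 change (y axis, MTAP+/- minus MTAP+/+) of probe sets that carry a ribosomal protein symbol is plotted against their mean RMA log2 signal over 8 livers (x axis). Colours separate the 49 chosen probe sets, the other 56 of the members and 110 with several symbols, and the chosen ones of Rps6, Rpl7l1 and Rps4l lie below all others.

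Within a genotype the ribosomal protein genes varied together in part between livers. Each signal was taken as its deviation from the genotype mean, and members were correlated over the 8 livers, which share 1 normalisation. The mean correlation between pairs of members was 0.223, beside 0.00929 between pairs of all genes. It stayed between 0.164, without MTAP+/+ replicate 1, and 0.275, without MTAP+/+ replicate 2. Of 49 members, 26 (53.1%) had r above 0.5 with the mean of the others, as 12.8% of the 18144 other genes had with the mean of the members. Both shares are descriptions over 8 points. The axis that held most of the members' variance within genotypes, 46.5% of it, did not follow the family mean. Its score was 1.57 in MTAP+/- replicate 2, where the family mean was lowest, and 0.59 in MTAP+/+ replicate 1, where that mean was highest. In MTAP+/- replicate 2, 20 members had their lowest value of the 8 livers and 3 their highest.

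The closest followers of the family mean were Rps18 (r = 0.953), Rps3 (0.924) and Rpl38 (0.916), which in mouse is needed for translation of Hox messenger RNAs. Rps18 had 12.01, 11.73, 11.85 and 11.96 in MTAP+/- livers and 12.13, 11.95, 11.78 and 11.73 in MTAP+/+ livers. Its lowest MTAP+/- liver was replicate 2 and its highest MTAP+/+ liver replicate 1, as for the family mean, and its change was -0.010 ± 0.12. Rps3 had -0.022 ± 0.12 and Rpl38 -0.032 ± 0.12. Rps4l went the other way, with r = -0.58, and Rps16 and Rpl4 were also under 0, at -0.19 and -0.050. Rps18, Rps3, Rpl38 and Rpl4 were named after their values were seen. Rps6 had 0.48 and Rpl7l1 0.12.

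**Figure D5:**
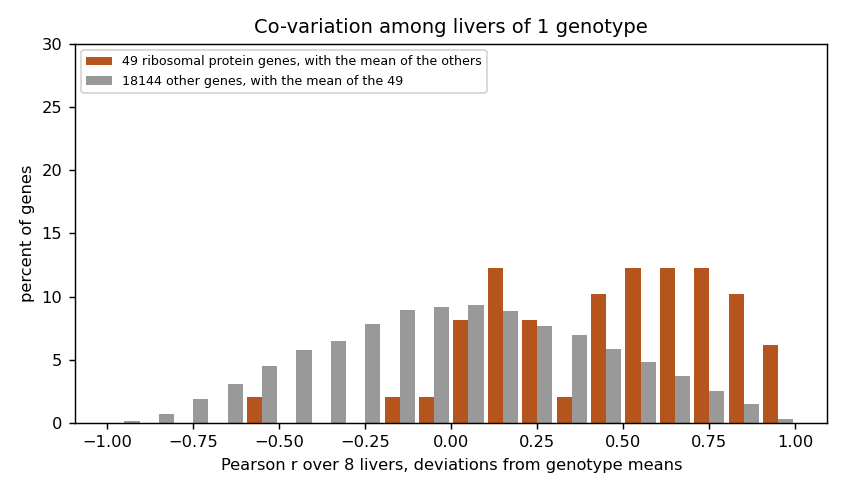
The distribution of Pearson's r over 8 livers (x axis, deviations from genotype means) is shown as percent of genes (y axis) for the 49 ribosomal protein genes, each with the mean of the others, and for 18144 other genes with the mean of the 49. The members lie mostly to the right, with a median of 0.516, and the other genes centre on 0.018.

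Genes that work with the ribosome were read from lists drawn up beside the members, and 0 of their genes passed the threshold. Of 32 measured initiation factors of 37 listed, 10 were higher and 22 lower, with a median change of -0.070. Eif2b4, a subunit of the exchange factor for eIF2, had 7.89, 7.99, 7.97 and 7.93 in MTAP+/- livers against 8.64, 8.19, 8.17 and 8.12 in MTAP+/+ livers, with no overlap (change -0.34 ± 0.12, adjusted p = 0.434). Eif4g3, a scaffold of the cap-binding complex, had -0.46 ± 0.19, Eif3d, which binds caps within eIF3, -0.36 ± 0.17, and Eif2b2 -0.29 ± 0.13. With probe sets averaged per gene Eif4g3 had -0.15 and Eif3d -0.10. Of 13 elongation and termination genes of 14 listed, 4 were higher and 9 lower, with a median of -0.10. Among them the release factor Etf1 had 0.33 ± 0.14, the recycling factor Abce1 0.35 ± 0.18, the rescue factor Pelo -0.36 ± 0.20 and Eef1a1 0.14 ± 0.098. Etf1 had 0.11 with the mean of its probe sets.

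Other messenger RNAs with the oligopyrimidine motif had 14 of 17 listed genes measured, 6 higher and 8 lower, with a median of -0.010. The smallest p-values among these were those of the chaperones Nap1l1 (0.37 ± 0.15) and Npm1 (0.29 ± 0.13) and the splicing regulator Hnrnpa1 (0.27 ± 0.12). Nap1l1 had 0.11 with the mean of its probe sets. For the promoter factors, 9 of 10 were measured, 5 higher and 4 lower with a median of 0.030. Sp1 had 8.36, 8.53, 8.27 and 8.26 in MTAP+/- livers against 7.81, 7.99, 8.15 and 8.18 in MTAP+/+ livers (0.32 ± 0.11, adjusted p = 0.417). Myc had 0.27 ± 0.14, Yy1 -0.25 ± 0.16 and Gabpb1, a subunit of the factor GABP, -0.21 ± 0.11. With probe sets averaged per gene Sp1 had 0.21, Yy1 -0.0031 and Gabpb1 0.020.

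Control of mTORC1 and of the S6 kinases held the largest single change of these lists. Of 17 measured genes of 19 listed, 9 were higher and 8 lower with a median of 0.023, and 4 (23.5%) had an unadjusted p under 0.05, against 9.14% of all genes. Ddit4, a stress-induced inhibitor of mTORC1, had 5.78, 6.37, 5.59 and 5.95 in MTAP+/- livers against 7.67, 6.96, 7.59 and 6.52 in MTAP+/+ livers. The genotypes did not overlap, and the change was -1.26 ± 0.25 (adjusted p = 0.168), with an adjusted p of 0.0474 without MTAP+/+ replicate 4 and of 0.462 at the other end of the fits. Rps6ka3, a kinase that can phosphorylate the Rps6 protein, had 6.72, 6.89, 6.60 and 6.75 in MTAP+/- livers against 6.17, 6.54, 6.10 and 6.02 in MTAP+/+ livers (0.54 ± 0.13, adjusted p = 0.234). The mean of its probe sets gave 0.25. Pdcd4, a translation inhibitor that S6 kinase marks for degradation, had 0.39 ± 0.13 without overlap. Sesn2, an amino acid sensor that restrains mTORC1, had -0.26 ± 0.11.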

How the data were processed

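Total RNA of 8 livers was hybridised to 1 Affymetrix array each. The authors deposited RMA values, which are on a log2 scale by their range; RMA is named in the submitters' processing notes, without a version. RMA quantile normalisation gives all arrays 1 distribution, so a shift of all transcripts together would not be seen, and it compresses differences of dim probe sets. The number of arrays limits the precision.

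Of 45101 probe sets, 64 controls were left out. The platform annotation gave 1 symbol for 34945, several for 932 and none for 9160. Groups follow the sample titles. Each gene's probe set of highest mean entered a two-sided limma fit (version 3.58.1 in R 4.3.3, lmFit, then eBayes) of genotype alone, with Benjamini-Hochberg adjustment over all genes. The fit was checked on simulated data with genes drawn independently. That check required recovery only of a change larger than that of any member. Adjusted p-values in the text come from this fit unless another fit, an alternative or a left-out liver is named with them. The p-values treat the 8 mice as independent.

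Named were Mtap, the 10 members of smallest p in each direction, members of paralog pairs, members among the 100 genes nearest Mtap, the 3 of widest range and up to 4 genes per list; others are said to be named after their values were seen. The members and lists were chosen with earlier results of these data known. Correlations and list medians are descriptions without a test. The labels do not say whether equal replicate numbers pair mice, and the main fit did not use them as pairs. Deviations from the genotype means correlated at -0.10, 0.15, 0.030 and 0.14 for equal numbers. For unequal numbers the correlations ran from -0.30 to 0.21, and with so few arrays these values cannot settle whether mice were paired. No scan date or batch was used. Alternatives were other probe set choices, a filter on dim genes, other variance settings, array weights, centring, renewed normalisation, a replicate block, a threshold of 0.1 and each liver left out. Promoter letters were read from RefSeq tables.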

Additional observations from a re-analysis of the deposited data

Results flagged for a closer look

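Of 64 groups of 4 livers checked, over the named members and the summary values of each liver, 7 held a liver whose gap to the nearest other value was, as a share of the group's range, above Dixon's 95% critical value. Chance gives this in about 1 in 20 groups. In MTAP+/- livers these were replicate 2 for Rpl39 (6.48, low), Rpl7 (11.64, low) and Rpl8 (12.00, high) and replicate 4 for Rpl27a (6.78, high). In MTAP+/+ livers they were replicate 1 for Rpl27 (11.79, high), replicate 2 for Rps29 (12.88, low) and replicate 4 for Rpl7l1 (7.96, low).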

How the results depend on the processing

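The count of ribosomal protein genes past the threshold was 0 under every alternative run, including the probe sets with several symbols, an alternative chosen after seeing the data. At a threshold of 0.1 it was also 0 in the main fit, but with array weights Rps4l had an adjusted p of 0.0589. Leaving out probe sets named _a_at, _s_at or _x_at left 26 of the 49 members. The median change of the members lay between -0.050, without MTAP+/- replicate 4, and 0.037, without MTAP+/- replicate 2, and was 0.023 with array weights. With the replicate number as a block, 0 members passed, the median change of the members was -0.022, 6 genes passed in all and Mtap had -0.80 with an adjusted p of 0.112. Mtap also had -0.80 with dim genes left out (adjusted p = 0.0589), and with 1 liver left out its change was -0.84 to -0.74 and its adjusted p 0.0451 to 0.121. The count of all genes past the threshold was 4 with the mean of probe sets, 2 with dim genes left out and 3 to 20 with 1 liver left out. It was 3 without MTAP+/- replicate 1, 5 without MTAP+/+ replicate 1 or 3, 4 without MTAP+/+ replicate 2 and 20 without MTAP+/+ replicate 4. The mean of probe sets moved Rps6, Rpl7l1, Rpl27a, Rps6ka3, Eif4g3, Eif3d, Etf1, Nap1l1, Sp1 and Yy1 by over 1.5 times towards 0, as given with each, array weights moved Rpl19 to -0.10, and renewed normalisation moved Eef1a1 to 0.091. Changes near 0 turned sign. Rpl35 had 0.010 with the mean of probe sets, 0.13 without probe sets named _a_at, _s_at or _x_at, 0.081 with array weights and 0.023 when normalised again. Gabpb1 had 0.020 with the mean of probe sets, Rps24 -0.014 with probe sets named _a_at, _s_at or _x_at left out and Rps27 0.023 with array weights. With 1 liver left out in turn, the change ran between -0.025 and 0.072 for Rpl39l, -0.048 and 0.42 for Rpl12, -0.090 and 0.049 for Rps27, -0.14 and 0.037 for Rpl3l and -0.28 and 0.046 for Rpl22l1. It ran between -0.076 and 0.087 for Rpl35, -0.10 and 0.035 for Rplp2, -0.015 and 0.092 for Rps16, -0.0020 and 0.067 for Rps4x and -0.0070 and 0.13 for Rpl22. The cause of these turns was not tested. Dim probe sets, such as those of Rpl12, Rps16, Rpl3l and Rpl39l, lie where signal over background is low, which limits what they can show. The same holds for the probe sets read for Rps24 (mean 3.68) and Rpl35 (mean 2.86) when those named _a_at, _s_at or _x_at were left out.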
